A study of Mus musculus with 49 samples.

Results

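The genes described here build the machinery that acidifies endosomes and lysosomes and moves cargo between them: the subunits of the vacuolar proton pump (V-ATPase), the adaptor complexes AP-1 to AP-4, the genes named Vps after vacuolar protein sorting in yeast, the ESCRT-III (Chmp) genes and the sorting nexins (Snx). They were chosen by symbol alone, as every row of the table whose symbol begins with Atp6v, Chmp, Vps or Snx and a number, or with an adaptor subunit name. This gave 88 of 9020 listed genes, which were then split by complex or family. The rule reads symbols only, but it can take only listed genes. Each of these reaches 100 RPM in at least 2 cells, so genes of these families below that level are not included.

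The cells are 49 neurons of the primary somatosensory cortex of wild-type CD1 mice, born at E13.5, when FlashTag (FT), a fluorescent dye taken up by dividing cells at the ventricular surface, was given, and collected at P7. All of them belong to 1 condition, with no other genotype, treatment or age, so that no group of animals serves as a control. Patchseq sequences the RNA that a recording pipette takes up from 1 neuron, here with the SMART-Seq v4 3′ DE kit, which reads transcript ends and has no molecular identifiers. The labels give a library pool for each cell (12, 9, 9, 9 and 10 cells in pools 1 to 5) and no animal, so the 49 cells were counted as 1 sample, no test between cells was made, and the spread over cells is given in place of an error.

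The V-ATPase has a cytosolic sector, V1, that hydrolyses ATP and a membrane sector, V0, that carries protons. In neurons the pump acidifies lysosomes and endosomes and also energizes the loading of transmitter into synaptic vesicles. Adaptor complexes gather cargo into coated vesicles, with AP-2 at the plasma membrane, AP-1 between the trans-Golgi network and endosomes, and AP-3 on the route to lysosomes and synaptic vesicles. Retromer and sorting nexins return cargo from endosomes, the HOPS, CORVET, GARP and EARP complexes tether membranes before fusion, and the ESCRT machinery pinches vesicles off into the endosome.

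Levels are in RPM, a gene's reads scaled so that every cell has the same total, so each level is relative to the rest of the RNA in that pipette. The shallowest cell had 209850 reads, the median cell 1240101 and the deepest 35342325, and 1 read was worth between 0.0283 and 4.77 RPM. A gene is called present in a cell at 10 RPM or more, which is at least 3 reads in the shallowest cell. All 5 neuronal markers (Snap25, Syt1, Stmn2, Map2 and Tubb3) were present in 49 of 49 cells. Markers of other cells were also found: the summed microglial markers had a median of 8.10 RPM and a highest value of 4244 RPM, the astrocyte markers 122 and 2816 RPM, and the oligodendrocyte-lineage markers 61.0 and 3905 RPM. Reads of 4 hemoglobin genes had a median of 894 RPM and reached 68.8% of the reads in cell IL01 of pool 3.

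Of the 88 genes, 53 (60.2%) were present in at least 25 of the 49 cells, where 38.2% of all 9020 listed genes were. The median gene of the set had a median level of 19.6 RPM over cells, against 3.87 RPM over all listed genes. A median of 100 RPM or more was reached by 24 of the 88 genes (27.3%) and by 13.7% of the listed genes, and a median of 0 RPM was found in 7 of them (7.95%) and in 19.4% of the listed genes. The levels also varied less between cells, with a median coefficient of variation of 1.48 against 1.96, though the genes compared were not matched on their level. Together the 88 genes took a median of 11571 RPM, or 1.16% of the reads of a cell. Only Atp6v0b and Atp6v0e2 were present in every cell, and 12 of the genes had at least 1 read in every cell.

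The plot of all 88 genes orders them by complex. The pump, AP-2 and retromer lay at the upper end, while the HOPS and CORVET core, the Vps13 genes and the sorting nexins with a PXA domain lay at the lower end. All 9 V1 genes, 4 of 5 V0 genes, all 4 AP-2 genes and all 4 retromer genes were present in at least 25 cells, and so were 3 of 5 AP-1 genes, 4 of 6 AP-3 genes, 6 of 10 ESCRT-III genes and 4 of 9 SNX-BAR genes. None of the 4 HOPS and CORVET core genes, the 4 Vps13 genes or the 3 PXA genes was.

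**Figure D1:**
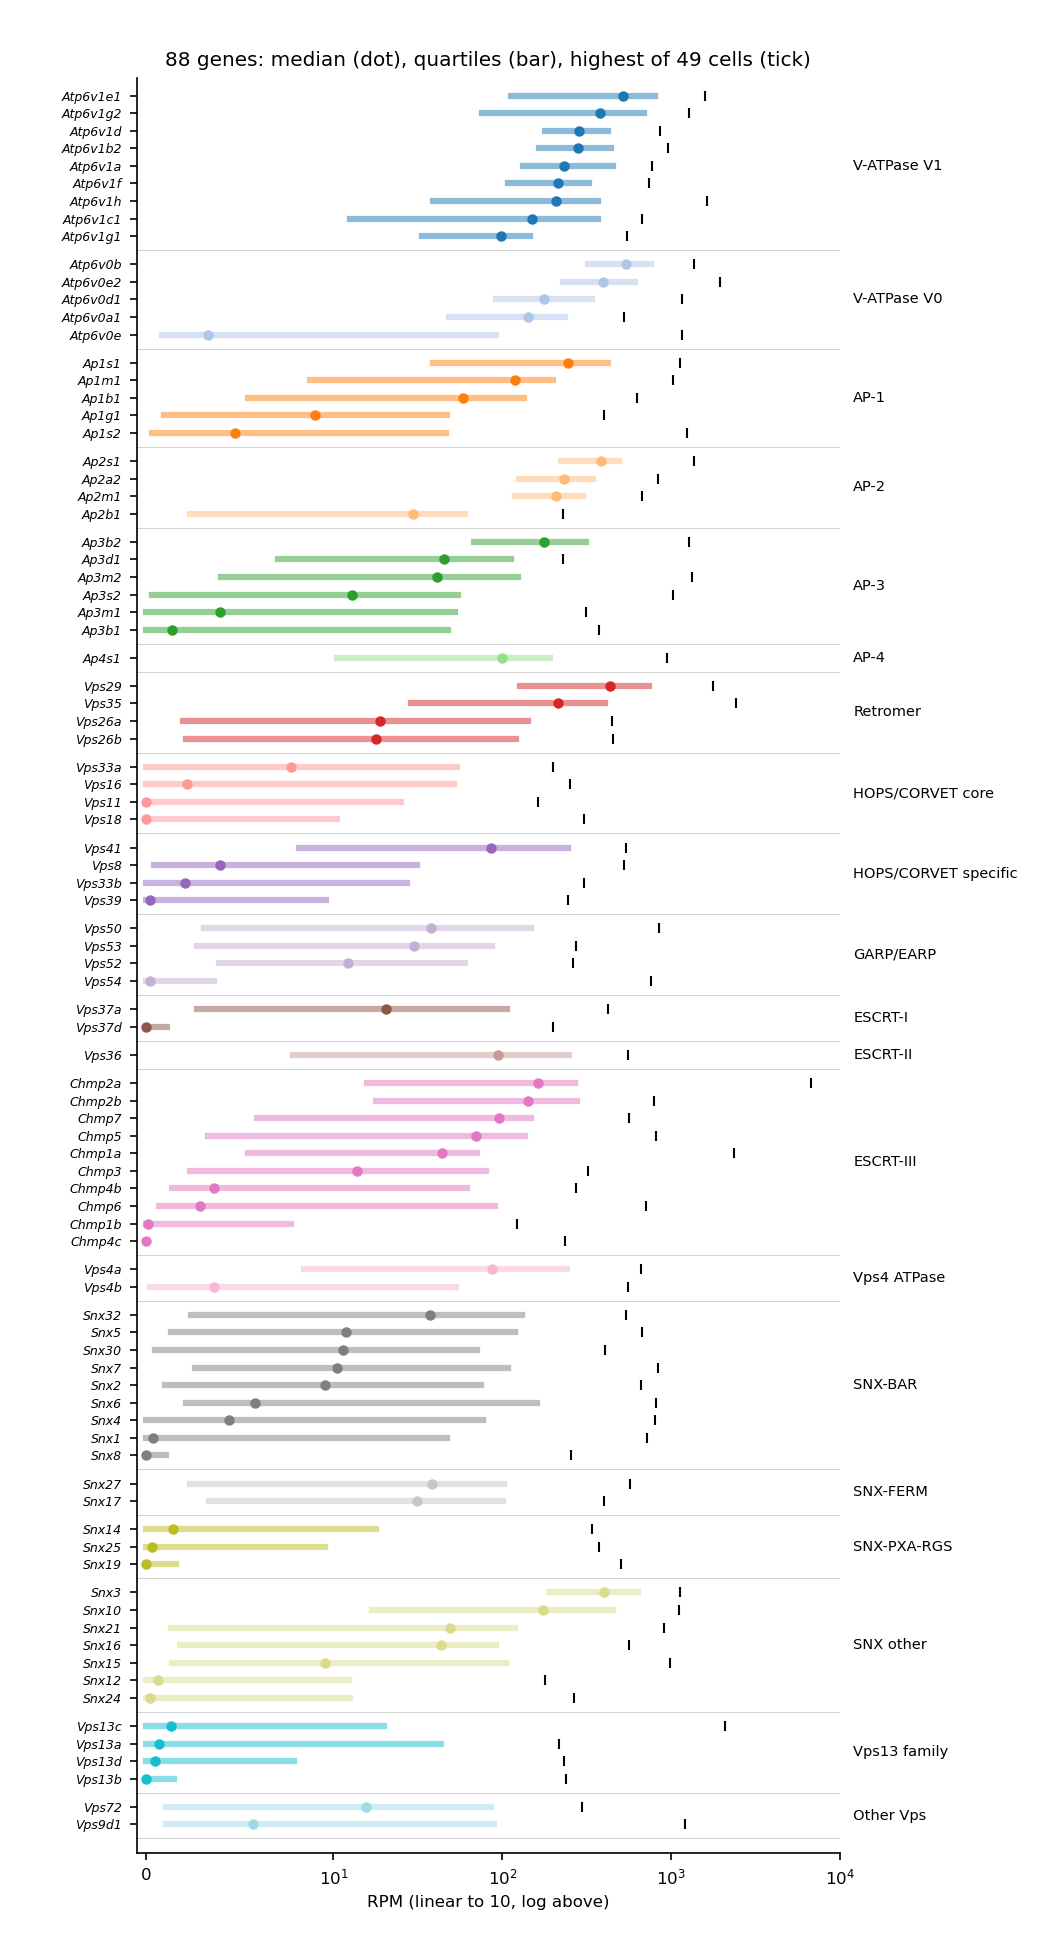
Level of each of the 88 genes over 49 cells in RPM on an axis that is linear to 10 and logarithmic above, grouped by complex; the dot is the median, the bar spans the quartiles and the tick is the highest cell. The medians run from 0 RPM to 541 RPM for Atp6v0b, and the tick of Chmp2a, at 6718 RPM, lies far from its bar.

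Promoter sequence was read for the element bound by the transcription factor TFEB, a regulator of lysosomal genes, whose core is the palindrome CACGTG. Promoters of 300 bases (250 before to 50 after the gene's start, RefSeq on GRCm38.p6) matched 63 of the 88 genes by symbol. CACGTG was found in 12 of these 63 genes (19.05%), in 12.3% of the 6837 listed genes with a promoter and in 8.09% of all 27025 genes in the promoter table. TCACGTGA, which contains CACGTG, was found in 6 of 63 (9.52%), in 2.37% of the listed genes and in 1.12% of all, and TCACGTGA with G before and C after it in 3 of 63 (4.76%), in 0.834% and in 0.370%. Each motif reads the same on both strands. The windows of 30 bases around TCACGTGA are shown for the 6 genes with TCACGTGA because they hold subunits of the pump, of retromer and of the HOPS and CORVET core side by side, with those 8 letters in capitals. Each is given 5′ to 3′ on the strand of its gene. Vps26a has 2 listed starts. The promoter at each of them holds 2 CACGTG cores, and so does that of Vps33a. In these promoters a core flanked by G and C is shown.
Atp6v1a, chr16:44139373-44139402, minus strand: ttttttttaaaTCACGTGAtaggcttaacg
Atp6v0d1, chr8:105566050-105566079, minus strand: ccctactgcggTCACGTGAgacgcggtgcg
Atp6v0e, chr17:26676387-26676416, plus strand: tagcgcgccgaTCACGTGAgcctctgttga
Vps26a, chr10:62486732-62486761, minus strand: atggcctacggTCACGTGAcgggcggcggg
Vps26a, chr10:62486970-62486999, minus strand: cgcacggctcgTCACGTGAcaactagctct
Vps16, chr2:130424290-130424319, plus strand: aggcggcctcgTCACGTGAccccgaagggc
Vps33a, chr5:123573010-123573039, minus strand: tgaacgtcccgTCACGTGAcgcaggcggcg

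The middle of the motif lay between -179 and 6 bases from the gene's start. The 6 genes did not share a level: their median RPM was 231 for Atp6v1a, 177 for Atp6v0d1, 18.8 for Vps26a, 7.75 for Vps33a, 3.32 for Atp6v0e and 2.21 for Vps16. A match describes these letters only, and binding was not measured.

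The V-ATPase was the most abundant complex of the set. Its 14 genes summed to 849 RPM in the lowest cell (IL01 of pool 3), 4287 RPM in the median cell and 6905 RPM in the highest (IL03 of pool 3). Atp6v0b, the proteolipid c'' of the proton-carrying ring (GRCm38 chr4:117884326-117887333, minus strand), had the highest median of all 88 genes. It had a lowest value of 15.9, a median of 541 and a highest value of 1368 RPM. It was at 100 RPM or more in 45 of 49 cells. Atp6v1e1, a peripheral stalk subunit (chr6:120794305-120822793, minus strand), followed with 4.38, 521 and 1597 RPM, and was present in 48 cells. The medians of these 2 genes differ by far less than their spread over cells.

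Within V1, the subunits of the head that hydrolyses ATP had similar medians. Atp6v1a, the catalytic subunit, ran from 0 to 769 RPM with a median of 231 and was present in 44 cells (89.8%, exact 95% interval 77.8% to 96.6%, which like all intervals here covers counting error only). Atp6v1b2, the other subunit of the head, ran from 1.17 to 960 RPM with a median of 281 and was present in 45 cells. The rotor subunit Atp6v1d had a lowest value of 0, a median of 285 and a highest of 854 RPM, and the smaller rotor subunit Atp6v1f 3.93, 212 and 739 RPM. Atp6v1h, a regulatory subunit, had a median of 208 RPM and stood highest in cell IL08 of pool 5, at 1625 RPM. Atp6v1c1, which joins V1 to V0, was the V1 position present in the fewest cells, 39 of 49 (79.6%, interval 65.7% to 89.8%), with a median of 149 RPM and a highest value of 670. In pool 5 its median was 15.7 RPM and in the other pools between 149 and 208 RPM. Pool 5 also had the lowest median depth, 814366 reads, and the part of depth in this difference was not tested.

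The G subunit of the peripheral stalk is made by Atp6v1g1, found in most tissues, or by Atp6v1g2, known as the neuronal form. Atp6v1g2 had a lowest value of 0, a median of 380 and a highest of 1279 RPM, and Atp6v1g1 0, 98.0 and 545 RPM. Atp6v1g2 took a median of 80.0% of the RPM of the pair and was the higher gene in 39 of 49 cells. Both were present in 41 cells, so most cells held both forms. Divided by the length of the exons, the median share of Atp6v1g2 was 64.4% and it was the higher gene in 34 cells.

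In V0, the small subunit e showed a sharper division. Atp6v0e2 (chr6:48537615-48541801, plus strand) ran from 11.9 to 1946 RPM with a median of 393 and was present in every cell. Its paralog Atp6v0e had a median of 3.32 RPM, was present in 19 cells and had no read in 8. Atp6v0e2 took a median of 99.3% of the pair and was the higher gene in 44 of 49 cells, or 47 per length. Atp6v0e was nevertheless high in a few cells, with 1163 RPM in cell IL02 of pool 2, where the next value was 448. Its mark in the plot of pump subunits is therefore a low line with points far above it. Atp6v0d1, between ring and rotor, ran from 7.74 to 1163 RPM with a median of 177, and Atp6v0a1, the subunit that sets the compartment of the pump, from 0 to 527 with a median of 143, the lowest of the V0 genes that were present in most cells. The ring subunit Atp6v0c and other forms of subunit a were not analysed here.

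**Figure D2:**
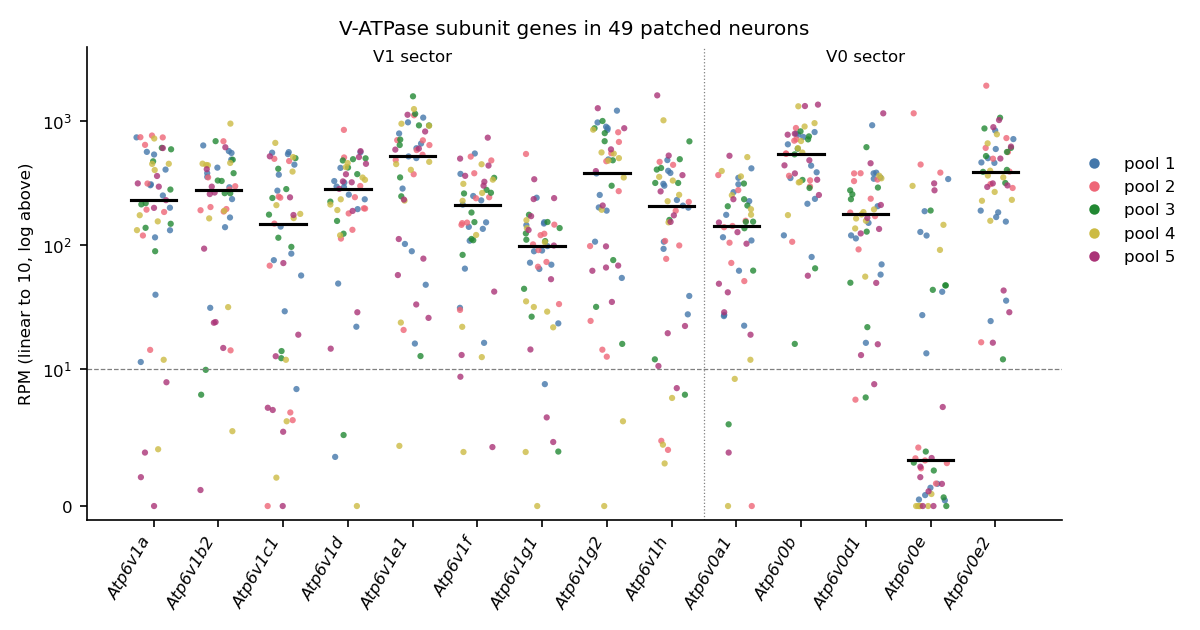
Level in RPM of the 14 V-ATPase genes in each of the 49 cells, on an axis linear to 10 and logarithmic above, with V1 genes left and V0 genes right; points are cells coloured by library pool, the black bar is the median and the dashed line is 10 RPM. Atp6v0b and Atp6v0e2 lie above the dashed line in all 49 cells, and Atp6v0e has its median at 3.32 RPM with single cells up to 1163 RPM.

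The sums of the sectors moved together only in part. The V1 sum was 612 RPM in the lowest cell, 2649 in the median and 5132 in the highest, and the V0 sum 87.2, 1541 and 3018 RPM. The ratio of V1 to V0 had a median of 1.86 and ran from 0.437 to 8.73, with V1 the larger in 40 of 49 cells. These are sums of 9 and of 5 genes, with the ring subunit c missing from the latter. Spearman's correlation between the sums was 0.333 over 49 cells, which share depth and pool. Within pools it was 0.545, -0.45, 0.85, -0.4 and 0.721 in pools 1 to 5, so its sign depended on the pool. Spearman's correlation with the log of the reads was 0.572 for V1 and 0.242 for V0. Within pools 1 to 5 it was 0.79, 0.383, 0.783, 0.317 and 0.0303 for V1. For V0 it was 0.545, -0.367, 0.767, -0.0667 and -0.103, so its sign depended on the pool.

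A complex needs each of its subunits, so cells were counted in which every listed position had a gene present. All 12 listed pump positions were filled in 25 of 49 cells (51.02%, interval 36.3% to 65.6%), 11 in 12 cells, 10 in 7 and 9 in 5. The V0 positions alone were complete in 41 cells (83.7%, interval 70.3% to 92.7%) and the V1 positions in 28 (57.1%, interval 42.2% to 71.2%). The positions of the G subunit, of the proteolipid Atp6v0b and of subunit e were filled in all 49 cells, while C, with Atp6v1c1, was filled in 39. Depth moved with this count: the cells with all 12 positions had a median of 3939266 reads and the others 716518. After thinning each cell to 358412 reads, which leaves out 5 shallower cells, 24 of 44 cells (54.5%) had all 12. The part of library quality in this count was not tested.

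**Figure D3:**
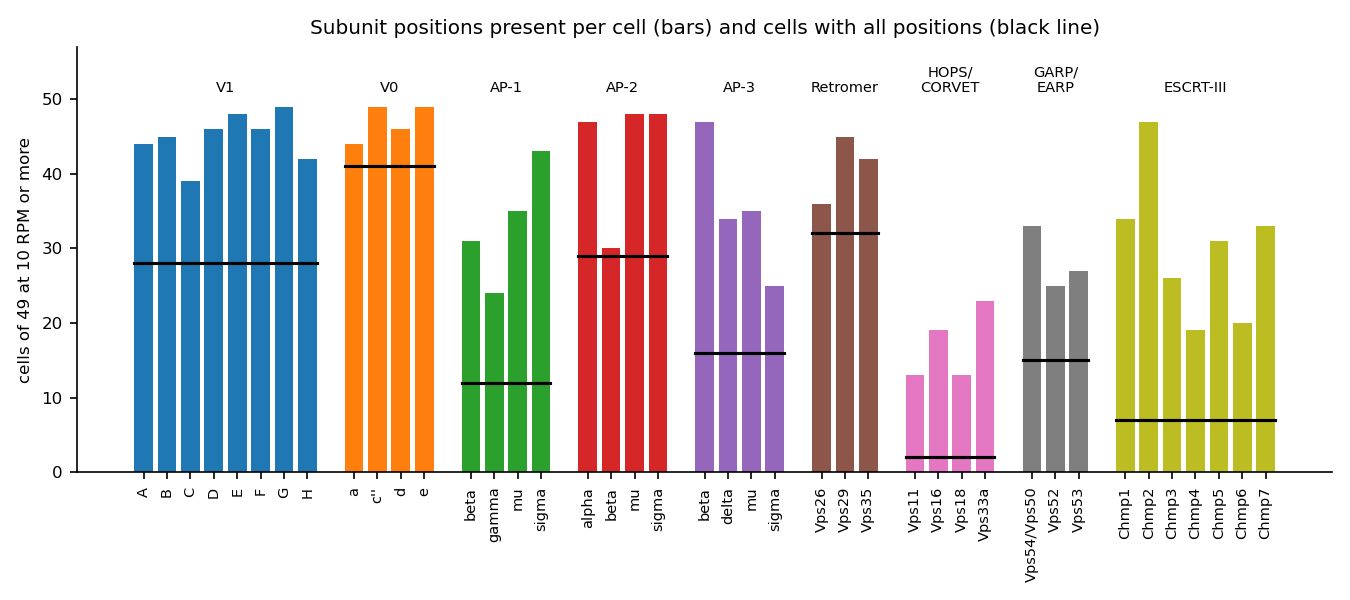
Number of the 49 cells (vertical axis) in which each subunit position (horizontal axis) has a listed gene at 10 RPM or more, for 9 complexes; the black line is the number of cells in which every position of that complex is filled. It stands at 41 for V0 and 28 for V1, at 29 for AP-2 just under its beta bar of 30, and at 2 for the HOPS and CORVET core.

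Among the adaptors, AP-2, which works with clathrin in endocytosis, was the most abundant, with a sum of 61.9 RPM in the lowest cell, 938 in the median and 1861 in the highest. Its small subunit Ap2s1 (chr7:16738410-16749294, plus strand) led with 8.85, 382 and 1373 RPM and was present in 48 cells. The large subunit Ap2a2 had a median of 231 RPM and the cargo-binding Ap2m1 one of 208 RPM, present in 47 and 48 cells. Ap2b1, the other large subunit, stood apart with a median of 29.5 RPM, a highest value of 230 RPM and presence in 30 cells. All 4 positions were filled in 29 cells (59.2%, interval 44.2% to 73.0%), so Ap2b1 was the position that set this count. The other alpha subunit, Ap2a1, was not analysed here.

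AP-1 summed to 11.8, 561 and 2153 RPM in the lowest, median and highest cell. Its sigma subunit came mostly from Ap1s1, which ran from 1.17 to 1129 RPM with a median of 244. Ap1s2, the X-linked form, had a median of 4.75 RPM, was present in 21 cells and had no read in 12. Ap1s1 took a median of 96.4% of the pair and was the higher gene in 34 of the 44 cells in which the pair reached 10 RPM. In cell IL10 of pool 5, Ap1s2 instead reached 1233 RPM and held 99.6% of the pair. The remaining medians were 118 RPM for Ap1m1, 58.6 for Ap1b1 and 9.01 for Ap1g1, the large subunit that was present in 24 cells, and 12 cells (24.5%, interval 13.3% to 38.9%) had all 4 positions filled.

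AP-3 has a ubiquitous and a neuronal form, and the neuronal beta and mu subunits, Ap3b2 and Ap3m2, were the more abundant here. Ap3b2 had a lowest value of 1.60, a median of 177 and a highest of 1282 RPM, and its paralog Ap3b1 0, 1.42 and 373 RPM. The share of Ap3b2 had a median of 99.0%, and it was the higher gene in 42 of 47 cells. Exons of Ap3b2 overlap those of Gm45906 on the same strand. Ap3m2 had a median of 41.2 RPM and Ap3m1 one of 3.97 RPM. The share of Ap3m2 had a median of 71.4%, and it was the higher gene in 26 of 37 cells. Ap3m2 and Ap3b2 both had their highest values in cell IL09 of pool 1, at 1337 and 1282 RPM. Ap3d1 had a median of 45.2 RPM and Ap3s2, the small subunit, 12.9 RPM with a highest value of 1019 RPM in cell IL02 of pool 2, against 309 in the next cell. All 4 AP-3 positions were filled in 16 cells (32.7%, interval 19.9% to 47.5%). The sigma position was filled in the fewest cells, 25, and rests on Ap3s2 alone, since the other small subunit, Ap3s1, was not analysed here. Ap4s1, the only listed gene of AP-4, a complex of export from the trans-Golgi network, had a median of 98.9 RPM and was present in 37 cells.

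The positions of the retromer trimer were filled in 36 to 45 of the 49 cells, and those of the pump in 39 to 49. Vps29 (chr5:122354369-122364984, plus strand), which binds 1 end of the scaffold, had a lowest value of 0, a median of 435 and a highest of 1780 RPM, and was present in 45 cells. Vps35, the scaffold, for which mutations are known in inherited Parkinson's disease, ran from 0 to 2422 RPM with a median of 214 and was present in 42 cells. The arm of the trimer was shared: Vps26a had a median of 18.8 RPM and Vps26b of 17.7 RPM, and Vps26a was the higher gene in 19 of 36 cells with a median share of 51.7%. Both were present in only 17 cells. Per length of exon the median share of Vps26a was 65.6%. All 3 positions were filled in 32 cells (65.3%, interval 50.4% to 78.3%).

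Most genes of the tethering complexes, in contrast, had low medians. The 4 genes of the HOPS and CORVET core summed to a median of 73.6 RPM, with a highest value of 487 RPM and no read in 8 cells. Vps33a, the subunit that binds SNARE proteins, had the highest median of the core, 7.75 RPM, and was present in 23 cells. Vps16 had a median of 2.21 RPM and was present in 19 cells, and Vps11 and Vps18 had medians of 0 RPM and were present in 13 cells each. All 4 were present together in 2 cells (4.08%, interval 0.498% to 13.98%). From 1 read, 8 cells had all 4. At this depth, low levels cannot be told from absence in a shallow cell, where 1 read is worth up to 4.77 RPM. Among the genes that are specific to 1 tether, Vps41 of HOPS differed from the rest, with a median of 85.7 RPM, a highest value of 542 RPM and presence in 35 cells. Vps39, its HOPS partner, had the lowest median, 0.208 RPM, and was present in 12 cells.

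GARP, with Vps54, and EARP, with Vps50, share Vps52 and Vps53 and differ in 1 subunit. Vps50, which directs EARP to recycling endosomes, had a lowest value of 0, a median of 37.7 and a highest of 852 RPM and was present in 31 cells. Vps54, which directs GARP to the trans-Golgi network, had a median of 0.214 RPM and was present in 11 cells, though it reached 763 RPM in cell IL02 of pool 2. Vps50 took a median of 99.7% of the pair and was the higher gene in 28 of 33 cells, or in 26 per length. Only 9 cells had both at 10 RPM. The listed shared subunits and either of the pair were present together in 15 cells (30.6%, interval 18.3% to 45.4%). Exons of Vps52 overlap those of the ribosomal protein gene Rps18 on the other strand.

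The ESCRT genes act in order, with ESCRT-I and ESCRT-II gathering ubiquitinated cargo, ESCRT-III forming the constricting filament and Vps4 taking it apart. In ESCRT-I, Vps37a had a median of 20.3 RPM and Vps37d of 0 RPM, and Vps37a was the higher gene in 27 of 30 cells with a median share of 100%. Vps36, the only listed Vps gene of ESCRT-II, had a median of 94.8 RPM and was present in 35 cells. The 10 ESCRT-III genes summed to 37.9, 850 and 9201 RPM in the lowest, median and highest cell, and the cell below the highest had 1775 RPM. All 7 positions were filled in 7 cells (14.3%, interval 5.94% to 27.2%). The cells with all 7 positions had a median of 3939266 reads and the others 1151168. Of the 17 cells with fewer than 2 markers present of microglia, of astrocytes and of the oligodendrocyte lineage, 0 had all positions filled. For a count of 0 the limit used is 3 cells of the total, so this allows a share of up to 17.6%. That limit lies above the 14.3% of all cells. The part of the markers and of depth in this count was not tested.

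The highest of the ESCRT-III genes by median were the paralogs of the capping subunit Chmp2. Chmp2a (chr7:13032010-13034807, minus strand) had a lowest value of 0, a median of 162 and a highest of 6718 RPM, and Chmp2b, which is mutated in an inherited frontotemporal dementia, 0, 142 and 791 RPM. Neither led: Chmp2a was the higher gene in 25 of 48 cells and its median share was 52.3%, and 30 cells had both at 10 RPM. The order of the pair depended on the scale and the cells, with a median share of Chmp2a of 64.5% per length of exon and of 37.99% without the 8 cells in which hemoglobin held at least 1% of the reads. Spearman's correlation between the paralogs was 0.0181 over 49 cells. Other positions had a leading gene. Chmp1a took a median of 98.3% from Chmp1b and was the higher in 29 of 34 cells, with medians of 43.8 and 0.102 RPM, and Chmp4b was the higher in 17 of 19 cells over Chmp4c, with a median of 3.60 RPM. Chmp4c was the gene of the set present in the fewest cells, 2 of 49 (4.08%, interval 0.498% to 13.98%). That is the fewest a listed gene can have, since each reaches 100 RPM in at least 2 cells. Chmp4c had 234 RPM in cell IL09 of pool 3 and 156 RPM in cell IL07 of pool 2. Its exons overlap those of Snx16 on the other strand, and Snx16 was at 247 RPM in the former cell and at 0 in the latter. Of the Vps4 ATPases, Vps4a had a median of 87.2 RPM and Vps4b of 3.60 RPM, and Vps4a took a median of 83.6% and was the higher in 31 of 39 cells.

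The lesser gene of a pair held more of the RPM summed over cells than its median share in 8 of the 12 pairs. Each listed gene reaches 100 RPM in at least 2 cells, so a gene with a low median is listed through its high cells. Ap1s2 held 26.6% of its pair over the summed RPM against a median share of 3.64%, Vps54 22.4% against 0.323%, Vps37d 17.5% against 0%, Chmp4c 17.2% against 0% and Atp6v0e 16.6% against 0.707%. Chmp1b held 15.5% against 1.67%, Ap3b1 12.6% against 1.01% and Vps4b 29.05% against 16.4%. The leading gene by the median share also led by the summed RPM in each of these 8 pairs.

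**Figure D4:**
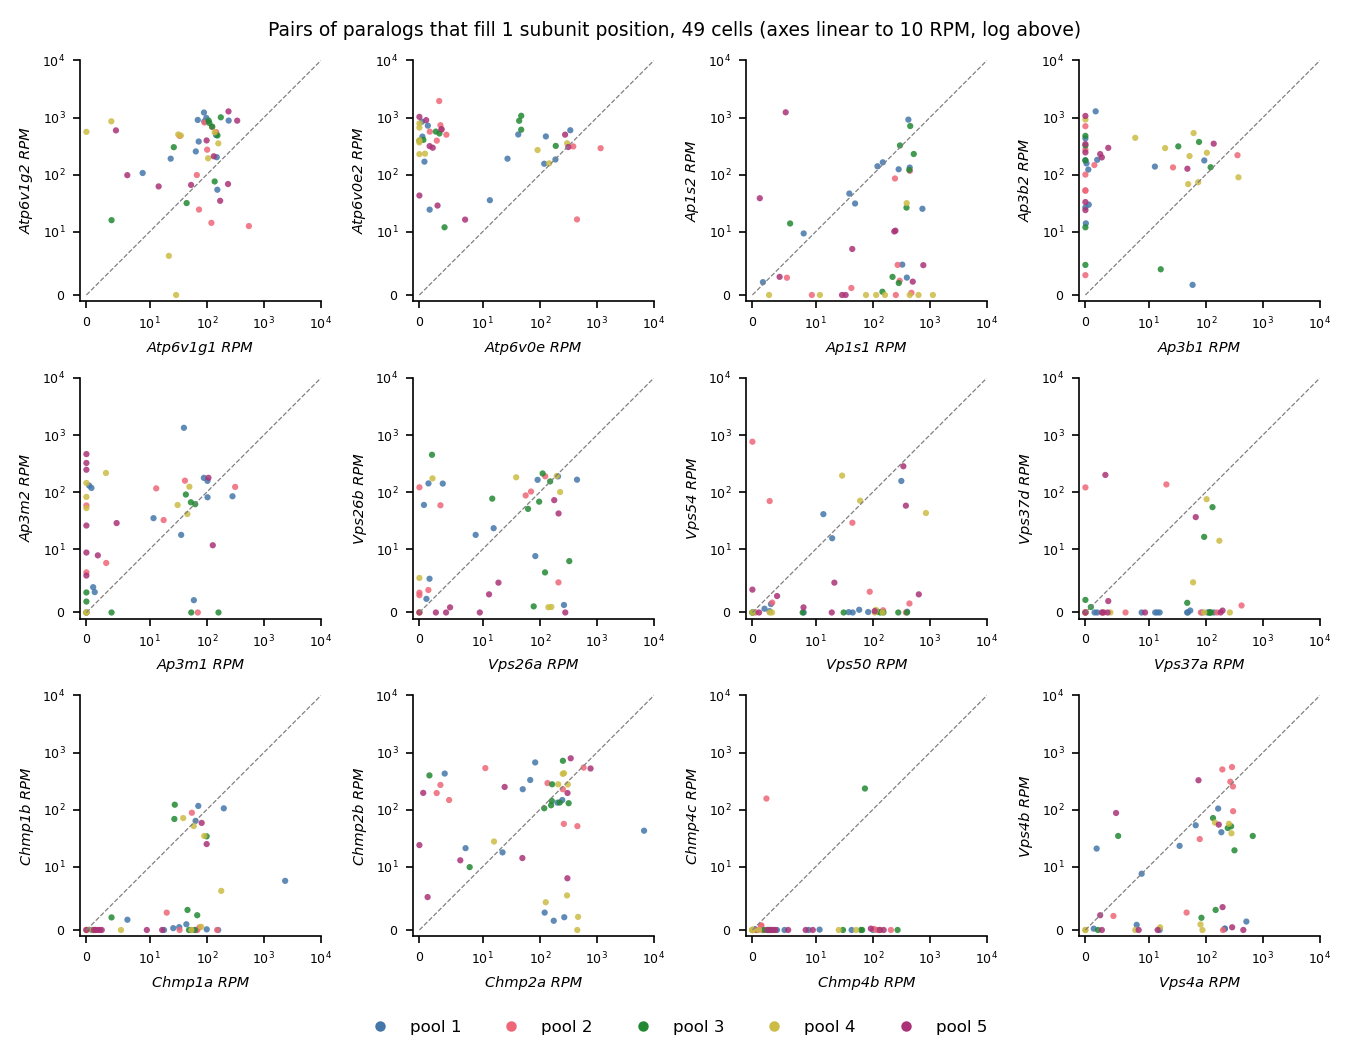
Level in RPM of 12 pairs of paralogs that fill the same subunit position, 1 panel per pair, with 49 cells as points coloured by library pool; the axes are linear to 10 and logarithmic above, and the dashed line marks equal levels. Points crowd on the Atp6v0e2 and Ap3b2 sides of the line, with 44 of 49 and 42 of 47 cells, and lie on both sides for Chmp2a with Chmp2b (25 of 48) and Vps26a with Vps26b (19 of 36).

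Single cells held a large part of some of these sums. Cell IL02 of pool 1, one of the shallowest with 258130 reads, had 1734 reads of Chmp2a, or 6718 RPM, where the next cell had 775 RPM. The same cell had 609 reads of Chmp1a, the filament subunit that recruits Vps4, or 2359 RPM, where the next cell had 198 RPM. Hemoglobin genes made up 1.55% of its reads. Without this cell the coefficient of variation of the ESCRT-III sum was 0.533 in place of 1.27, and no other complex changed as much. Chmp1a and Chmp2a had the largest coefficients of variation, 3.48 and 3.04, among the genes with a median of at least 10 RPM, followed by Ap3s2 with 2.80, Ap3m2 with 2.04 and Snx21 with 1.87. In cell IL09 of pool 1, Vps13c had 2577 reads, or 2085 RPM, against 317 RPM in the next cell. Of the 88 genes, 4 (4.55%) had 50% or more of their summed RPM in 1 cell, namely Chmp1a, Chmp4c, Snx19 and Vps13c, where 6.59% of all listed genes did.

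The highest values came often from shallow libraries, about as often as for listed genes in general. The highest cell had fewer reads than the median cell for 70 of the 88 genes (79.5%) and for 75.7% of all listed genes. Cell IL04 of pool 4, with 254182 reads, was highest for 10 of them, among them Ap2s1, Ap4s1, Chmp5, Chmp7 and Snx6, while its AP-1 sum, 11.8 RPM, was the lowest of all cells. Without molecular identifiers, the number of starting molecules behind such a value is not known.

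Sorting nexins of the SNX-BAR group, which bend membranes into tubules, summed to 7.74, 576 and 1419 RPM. Snx32, the form known from brain, had the highest median, 37.3 RPM, with a highest value of 543 RPM and presence in 29 cells. Its exons overlap those of the actin regulator Cfl1 on the other strand, and strand use in the counting is not stated. Snx5 and Snx6, which pair with Snx1 and Snx2 to carry retromer cargo, had medians of 11.8 and 5.83 RPM, and Snx2 and Snx1 had 9.53 and 0.358 RPM. Snx8 had a median of 0 RPM and was present in 9 cells, the fewest of the group. The pair with a FERM domain, which recycles receptors to the cell surface, lay close together, with medians of 38.2 RPM for Snx27, a partner of retromer, and 31.3 RPM for Snx17.

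Among the sorting nexins without these domains, Snx3, which works with retromer in returning Wntless, the carrier of Wnt proteins, was far the highest (chr10:42502030-42535381, plus strand). It had a lowest value of 0, a median of 402 and a highest of 1121 RPM and was present in 46 cells. Per kilobase of exon it had the highest median of all 88 genes. Snx10 followed with a median of 175 RPM and presence in 39 cells. Snx21 had a median of 49.1 RPM, with 907 RPM in cell IL04 of pool 2 and 848 in cell IL08 of pool 5 and 242 RPM in the next. Snx24 had the lowest median of this group, 0.208 RPM, and was present in 15 cells. The 3 genes with PXA and RGS domains, which sit at contacts of the endoplasmic reticulum, had medians of 1.43 RPM for Snx14, 0.301 for Snx25 and 0 for Snx19.

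The Vps13 genes encode large bridges for lipid transfer between membranes. Their medians ran from 0 RPM for Vps13b to 1.33 RPM for Vps13c, and each was present in 10 to 18 cells. Each exceeded 200 RPM in at least 1 cell, with 217 RPM for Vps13a, 240 for Vps13b, 232 for Vps13d and 2085 for Vps13c. Each listed gene reaches 100 RPM in at least 2 cells, so a gene with such a median is listed only through its high cells. The symbol rule also took in Vps72, which encodes a subunit of a chromatin remodelling complex and not of the sorting machinery, with a median of 15.5 RPM, and Vps9d1, with a median of 5.72 RPM.

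A cell with more of these genes present was a cell with more genes present altogether. Between 24 and 82 of the 88 genes were present per cell, with a median of 51, and Spearman's correlation of this number was 0.97 with the number of listed genes present and 0.719 with the log of the reads. Within pools, Spearman's correlation with the reads ran from 0.541 in pool 5 to 0.95 in pool 3, so the relation had the same sign in all 5. After thinning it was 0.726 over 44 cells, and the number ran from 25 to 80. The 88 genes made up 0.984% to 1.53% of the genes present in a cell, with a median of 1.27%, where they are 0.976% of the listed genes. The plot of this number against depth shows the deep cells of pool 1 lying to the right of the rest at the same number.

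**Figure D5:**
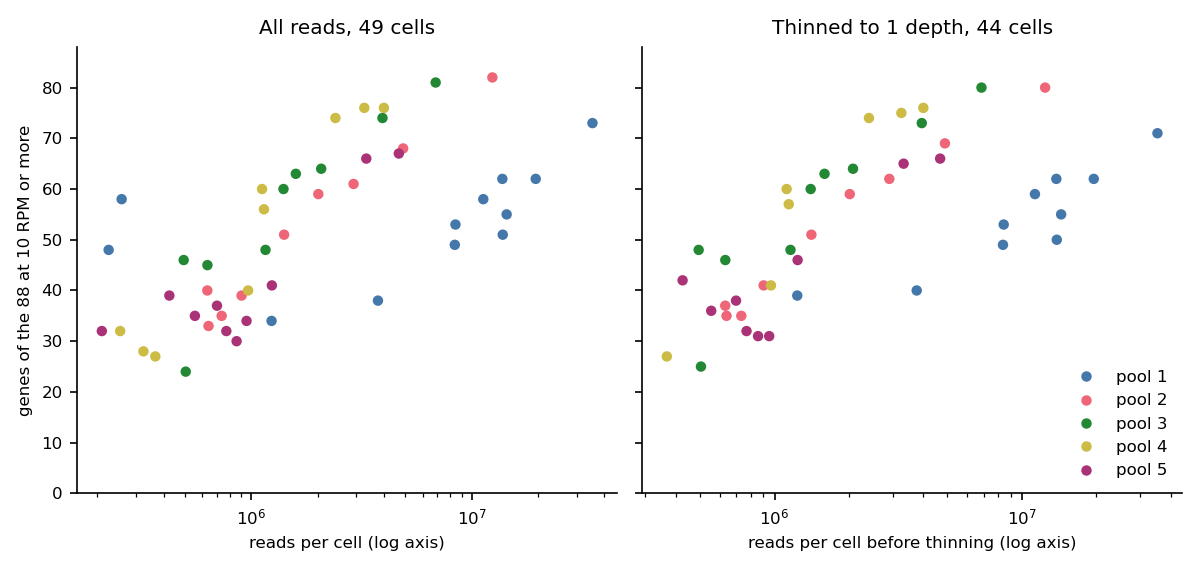
Number of the 88 genes at 10 RPM or more (vertical axis) against the reads of the cell (horizontal log axis), for all reads of 49 cells (left) and after thinning to 358412 reads in 44 cells (right); points are cells coloured by library pool. The number runs from 24 to 82 on the left and from 25 to 80 on the right, and rises with depth in both.

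The summed level of the 88 genes ran from 2507 to 17037 RPM over cells, and the pool medians lay between 9662 RPM in pool 5 and 12770 RPM in pool 4. These pool medians are without TMM, which shifts the pools differently. The 2 lowest cells were IL12 of pool 1, with 2507 RPM, and IL01 of pool 3, with 2554 RPM. Hemoglobin took 68.8% of the reads of the latter. The former had 225363 reads, 6.36% of them mitochondrial, and inhibitory markers that summed to 3292 RPM. Cell IL08 of pool 5, also with 6.36% mitochondrial reads, had a sum of 10036 RPM. In cell IL08 of pool 4 the inhibitory markers summed to 6185 RPM and the 88 genes to 12968 RPM. These are single cells, and the part of either trait in the low sum was not tested. Spearman's correlation of the sum over all 49 cells was 0.495 with the neuronal markers and 0.474 with the log of the reads. It was -0.589 with the mitochondrial genes and -0.378 with the hemoglobin genes. The sign was the same in all 5 pools for neuronal markers (0.117 to 0.717), reads (0.117 to 0.883) and mitochondrial genes (-0.65 to -0.182). The part of these measures in the levels was not tested.

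Members of 1 group were barely more alike across cells than other members. The groups here are complexes, sectors and families: V1 and V0 count as separate groups. Families such as SNX-BAR and Vps13 count as groups though they are not complexes. The median Spearman's correlation was 0.153 over the 216 pairs of the same group and 0.141 over the 3612 pairs of different groups. Over all pairs of listed genes it was 0.088. After thinning the values were 0.123, 0.11 and 0.052. Cells share depth and pool, and these values are given as a description. V1 had a median of 0.261 over its 36 pairs, the HOPS and CORVET core 0.287 over 6 and the Vps13 genes 0.259 over 6. After thinning these were 0.25, 0.195 and 0.156. V0 had 0.0822 over 10 pairs and 0.112 after thinning. Of the 20 pairs with the highest correlation, 2 were of the same group, where 5.64% of all pairs are. They were Chmp1b with Chmp7 (0.549) and Atp6v1c1 with Atp6v1g2 (0.54). The highest of the 20 pairs were Atp6v1c1 with Vps53 (0.688), Vps52 with Vps37a (0.687) and Atp6v1c1 with Vps37a (0.645). Each pair was on different chromosomes and in different complexes. Exons of Vps53 overlap those of Glod4 on the same strand.

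Other genes of the pathway were taken from lists of known function. Of the clathrin coat and its partners, 9 of 12 listed genes (75%) were present in at least 25 cells, and the median gene of this list had a median of 27.98 RPM, where the median AP-2 gene had 219.7 RPM. The clathrin chains themselves were the highest, with medians of 432 RPM for the light chain Clta, 323 for the heavy chain Cltc and 283 for Cltb. The 3 genes present in fewer cells were Hip1r, with a median of 6.37 RPM, and the adaptors Gga3 and Gga2, with 1.58 and 0.291 RPM. Of the subunits of these and related complexes that the symbols miss, 15 of 26 (57.7%) were, among them the pump's accessory subunit Atp6ap1 with a median of 201 RPM and Tsg101 of ESCRT-I with 136 RPM. Of the regulators at the lysosome's surface 6 of 11 (54.5%) were present, led by Lamtor1, an anchor of mTOR signalling, at 132 RPM. Lysosomal enzymes and membrane proteins were found less regularly, in 9 of 24 genes (37.5%), close to the 38.2% of all listed genes, with the protease Ctsb at 444 RPM, Ctsd at 143 RPM and the membrane protein Lamp1 at 20.8 RPM. Of 7 sorting receptors only M6pr, the cation-dependent mannose 6-phosphate receptor, was present in at least 25 cells, with a median of 19.4 RPM, while Sort1 had 2.60 and Sorl1 3.55 RPM.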

How the data were processed

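Single neurons were collected by patch pipette and libraries were made with the SMART-Seq v4 3′ DE and Nextera XT kits. The authors aligned reads to GRCm38 (mm10 in the labels) with STAR, counted them with HTSeq and deposited RPM for 9020 genes in 49 cells. Versions, annotation and the strand setting of the counting are not given in the sources used here. Each listed gene reaches 100 RPM in at least 2 cells, so genes below this were not analysed here.

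The value of 1 read in each cell was taken from the lowest values, and every value above 0 (100%) was a whole number of reads to a tolerance of 0.01. Simulated tables gave back the reads of all 441980 values, for 9020 genes. No count test was run on these reads, since there is 1 condition and the labels name no animal. Members and lists were chosen with earlier results of these data known. Subunits were assigned to complexes and positions by known function. Shares of cells above 0 have exact Clopper-Pearson 95% intervals, and for 0 cells the limit given is 3 cells of the total. Paralog shares were taken in cells with at least 10 RPM in the pair.

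Levels are RPM without division by gene length, because the kit reads transcript ends; the exons of a gene are those of GENCODE M21 on GRCm38. Per kilobase of exon, the order of the 88 medians had a Spearman's correlation of 0.973 with the order by RPM, and 7 of the 10 highest genes were the same. Exons of 4 members overlap another gene's on the same strand and those of 28 on the other strand. Named are the 10 highest medians, the 5 largest coefficients of variation among medians of at least 10 RPM, the highest and lowest median of each complex, every paralog of a shared position and members present in at most 5 cells. Further members and the genes of single high cells were named after their values were seen. Alternatives were other limits of presence, thinning, other scalings, leaving out each pool, other correlations and pseudocounts, and length. Tables were handled with pandas 2.3.3 and numpy 2.4.6 in Python 3.11.15, intervals computed with scipy 1.17.1, TMM factors with edgeR 4.0.16 in R 4.3.3, and plots drawn with matplotlib 3.10.9.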

Additional observations from a re-analysis of the deposited data

How the results depend on the processing

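No paired analysis was possible because there is 1 condition and no result comes from a test. Completeness depends on the limit of presence. From 1 read, the share of cells with all positions was 87.8% for the V-ATPase, 91.8% for V1, 95.9% for V0, 77.6% for AP-1, 85.7% for AP-2, 67.3% for AP-3, 89.8% for retromer, 16.3% for the HOPS and CORVET core, 75.5% for GARP and EARP and 51.02% for ESCRT-III. At 100 RPM it was 24.5%, 34.7%, 48.98%, 0%, 8.16%, 0%, 30.6%, 0%, 2.04% and 0% in the same order, where 0 of 49 cells allows a share of up to 6.12% (3 cells of the total). The number of the 88 genes present in most cells was 81 from 1 read, where 80.6% of all listed genes were, and 24 at 100 RPM, where 13.7% were. The other alternatives for completeness (10 reads, thinning) stayed within the interval of the value given. Chosen after seeing the data, leaving out the 8 cells with at least 1% hemoglobin reads did so too, while leaving out the 32 cells with 2 markers of a glial class gave 0% for the HOPS and CORVET core and for ESCRT-III, in 17 cells, where 0 cells allows up to 17.6%, and 47.1% for GARP and EARP. The cause was not tested. TMM changed levels by a median of -0.11 on the log2 scale, and the factor on the level ran from 0.572 to 2.09 over cells. It raised levels in every cell of pool 1 and lowered them in every cell of pool 4. Differences in level between pools therefore depend on the scaling. No sum of a complex (160 alternatives), paralog share (120) or median correlation (24) moved by more than its spread over cells or pairs. That spread is a standard deviation, for the Vps13 genes 310 RPM against a median of 38.5 RPM. A median can hardly move that far, so staying within it shows little. These alternatives include, chosen after seeing the data, the sums without cell IL02 of pool 1, the shares per kilobase of exon, and the shares and correlations without the cells named above. Medians of low sums still moved by over 1.5 times when 1 pool was left out: AP-4 to 63.4 RPM and ESCRT-I to 81.6 without pool 1, ESCRT-II to 60.7, 147 and 158 without pools 3, 4 and 5, the PXA genes to 4.13, 19.1, 20.9 and 5.66 without pools 1, 3, 4 and 5, and the Vps13 genes to 70.6 without pool 5. The median share of Chmp2a was 37.99% without the cells with hemoglobin. In cells of low depth, 10 RPM rests on as few as 3 reads.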
